A study of Homo sapiens with 6 samples.

Results

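Cell cycle genes are those whose RNA or protein accumulates as a cell copies its DNA and divides. The 42 genes described here were taken by symbol from a list of cell cycle genes, out of 36601 genes in each count matrix, and all 42 were found. They comprise 22 genes of G2 phase and mitosis, 17 genes of S phase, when DNA is copied, and the 3 D-type cyclins CCND1, CCND2 and CCND3. They were measured in human retinal organoids, miniature retinas grown from the embryonic stem cell line WA09 carrying a CRX-tdTomato reporter, in which the promoter of the photoreceptor gene CRX marks the cells. Organoids aged 113 to 126 days were broken into fragments. In each of 3 repeats, called Sets, fragments from one batch were either injected under the retina of normal dogs or kept in the dish, and both were collected after 3 days. The data are therefore 3 cultured and 3 transplanted single-cell libraries, with cultured and transplanted samples of a Set sharing an organoid batch. All 6 samples carry the reporter, and all come from a single cell line, so they hold no spread between donors. The dogs are not numbered in the labels. The comparison asks how these genes differed between retinal cell classes, and between fragments in the dog eye and their cultured counterparts.

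S phase and mitosis are controlled by different factors. Genes of S phase, such as the MCM helicase subunits, the replication clamp PCNA and the nucleotide enzymes TYMS and RRM2, are switched on by E2F factors once D-type cyclins with CDK4 or CDK6 have inactivated the retinoblastoma protein. Genes of G2 and mitosis, such as TOP2A, MKI67 and CCNB1, are switched on later through CCAAT boxes bound by NF-Y and through CHR elements bound by the MuvB complex with MYBL2 and FOXM1. In the developing retina progenitors divide, while rods and cones are born at or after a last division and Müller glia keep a progenitor-like programme without normally dividing.

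These elements could be read in the members' own promoters, and 7 are shown because they display both types. RefSeq promoter sequences (GRCh38.p14) were found for 33 of the 42 members, and the 150 bases before the annotated start are printed 5′ to 3′ on the gene's strand. Capitals mark a CHR element, a CCAAT box or an E2F site, on either strand. The first 4 belong to G2/M members and the last 3 to S members.
TOP2A (chr17:40417897-40418046, minus strand): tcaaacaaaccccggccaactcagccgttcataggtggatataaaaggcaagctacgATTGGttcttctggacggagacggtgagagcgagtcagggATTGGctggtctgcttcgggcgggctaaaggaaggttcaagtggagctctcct
MKI67 (chr10:128126424-128126573, minus strand): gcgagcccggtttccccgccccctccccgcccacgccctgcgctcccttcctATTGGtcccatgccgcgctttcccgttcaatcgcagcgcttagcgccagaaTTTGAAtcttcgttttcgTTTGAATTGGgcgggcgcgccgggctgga
CCNB2 (chr15:59104996-59105145, plus strand): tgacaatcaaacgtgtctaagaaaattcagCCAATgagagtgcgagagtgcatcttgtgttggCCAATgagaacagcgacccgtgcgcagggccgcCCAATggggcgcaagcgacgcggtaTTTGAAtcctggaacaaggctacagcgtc
HMMR (chr5:163460482-163460631, plus strand): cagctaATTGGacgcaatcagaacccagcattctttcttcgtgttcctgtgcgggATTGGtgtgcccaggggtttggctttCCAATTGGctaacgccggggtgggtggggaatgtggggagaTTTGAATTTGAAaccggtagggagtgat
PCNA (chr20:5126623-5126772, minus strand): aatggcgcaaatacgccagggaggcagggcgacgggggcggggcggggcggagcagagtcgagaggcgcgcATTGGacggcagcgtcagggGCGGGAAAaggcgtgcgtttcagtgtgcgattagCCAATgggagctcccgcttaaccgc
MCM6 (chr2:135876444-135876593, minus strand): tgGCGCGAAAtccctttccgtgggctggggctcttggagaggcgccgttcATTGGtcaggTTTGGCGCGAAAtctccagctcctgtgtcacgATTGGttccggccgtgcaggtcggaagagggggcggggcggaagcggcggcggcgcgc
MCM7 (chr7:100101398-100101547, minus strand): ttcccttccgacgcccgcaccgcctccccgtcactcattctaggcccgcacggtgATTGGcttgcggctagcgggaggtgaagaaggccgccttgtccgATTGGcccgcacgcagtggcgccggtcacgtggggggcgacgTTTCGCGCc
In the 250 bases before the start, a CHR element (TTTGAA or TTCGAA) was present in 10 of 18 G2/M members, 2 of 14 S members and 14.6% of 27305 RefSeq promoters. A CCAAT box was present in 17 of 18 G2/M members, 10 of 14 S members and 33.0% of all promoters. The 8-letter E2F sites searched (TTTCCCGC, TTTGCCGC, TTTCGCGC and TTTGGCGC) were present in 1 of 18 G2/M members, 8 of 14 S members and 2.79% of all promoters. CHR and CCAAT stood together in 9 of 18 G2/M promoters and in 5.24% of all. Overlapping matches were counted once per promoter. TOP2A, whose enzyme untangles sister chromosomes, had 2 CCAAT boxes and no CHR letters in the printed window, whereas MKI67, the common proliferation marker, and HMMR, a spindle protein, each had 2 CHR elements. A match of letters is a description of the sequence and was not tested for binding.

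After filtering, 39580 cells remained, from 690 to 15336 per sample, with median depths of 2117 to 4115.5 UMIs (unique molecular identifiers, each standing for 1 captured RNA). Barcodes shared between libraries made up at most 0.725% of a library. The cells of the classes were chosen by raw UMIs. Rods had 3 or more UMIs of NRL, the rod transcription factor (9271 cells). Cones had 3 or more of PDE6H, a cone phosphodiesterase subunit, and more of it than of NRL (5221 cells). The third class had 3 or more UMIs in the sum of RLBP1, HES5 and WIF1, genes of Müller glia (3908 cells), and 21180 other cells met no rule. Rods were checked with genes the rule did not use. NR2E3, an NRL target, was at 104 to 300.1 CPM (a gene's UMIs scaled to 1000000 UMIs summed over the cells of a class in a sample) in rods and 0 to 48.7 in the third class. Cones were likewise checked with GNAT2, the cone transducin, at 21.6 to 35.0 CPM in cones and 5.87 to 14.3 in rods, and ARR3, the cone arrestin, at 9.22 to 22.8 and 3.30 to 11.3 CPM. The ranges of GNAT2 did not overlap and those of ARR3 did. Among the other cone markers listed, CNGB3, PDE6C and GUCA1C had higher medians in cones. GNGT2 barely differed, at 89.0 to 652 CPM in cones and 64.6 to 626 in rods. OPN1SW ran the other way, with medians of 0.634 CPM in cones and 1.44 in rods. The third class also held much RNA of progenitor genes (1813 to 3585 CPM summed over 9 genes without any cycle gene), and many of its cells were dividing; their shares are given with the counts per cell. It is therefore called glial-marker cells here. Of the rods, 1915 also met the glial rule, and 1090 of the cones did. Depth differed between classes, with a median of 10427 UMIs in cones but 3146 in other cells of cultured 2. The glial-marker class of transplanted 2 held 13 cells and was left out of the fits.

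G2/M RNA was highest in glial-marker cells in 4 of 6 samples and lowest in cones in all 6. In transplanted 1 and transplanted 2 other cells held more, and the glial-marker class of transplanted 2 holds 13 cells. A few cells also set the glial-marker sums of cultured 3 and transplanted 3, with 22 and 71 cells. There the 5 richest cells held 75.8% and 91.7% of the G2/M UMIs. Summed over the 22 G2/M members, glial-marker cells held 2814, 1615 and 604 CPM in cultured 1, 2 and 3 and 779, 275 and 1073 CPM in transplanted 1, 2 and 3. Rods held 1222, 443 and 485 CPM in cultured and 297, 183.5 and 216.5 CPM in transplanted samples. Cones held 783, 331.5 and 214 CPM in cultured and 252, 125 and 145 CPM in transplanted samples, below rods of the same sample each time. Other cells held 1853, 610 and 459 CPM in cultured and 825.5, 542 and 258 CPM in transplanted samples. Within each class cultured 1 was the highest sample. The 17 S members were spread over a narrower range, from 179 CPM in cones of transplanted 3 to 1043 CPM in glial-marker cells of cultured 1. By the mean over the 24 sums CCND1 was the most abundant member, with its highest value, 363 CPM, in glial-marker cells of transplanted 1.

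**Figure D1:**
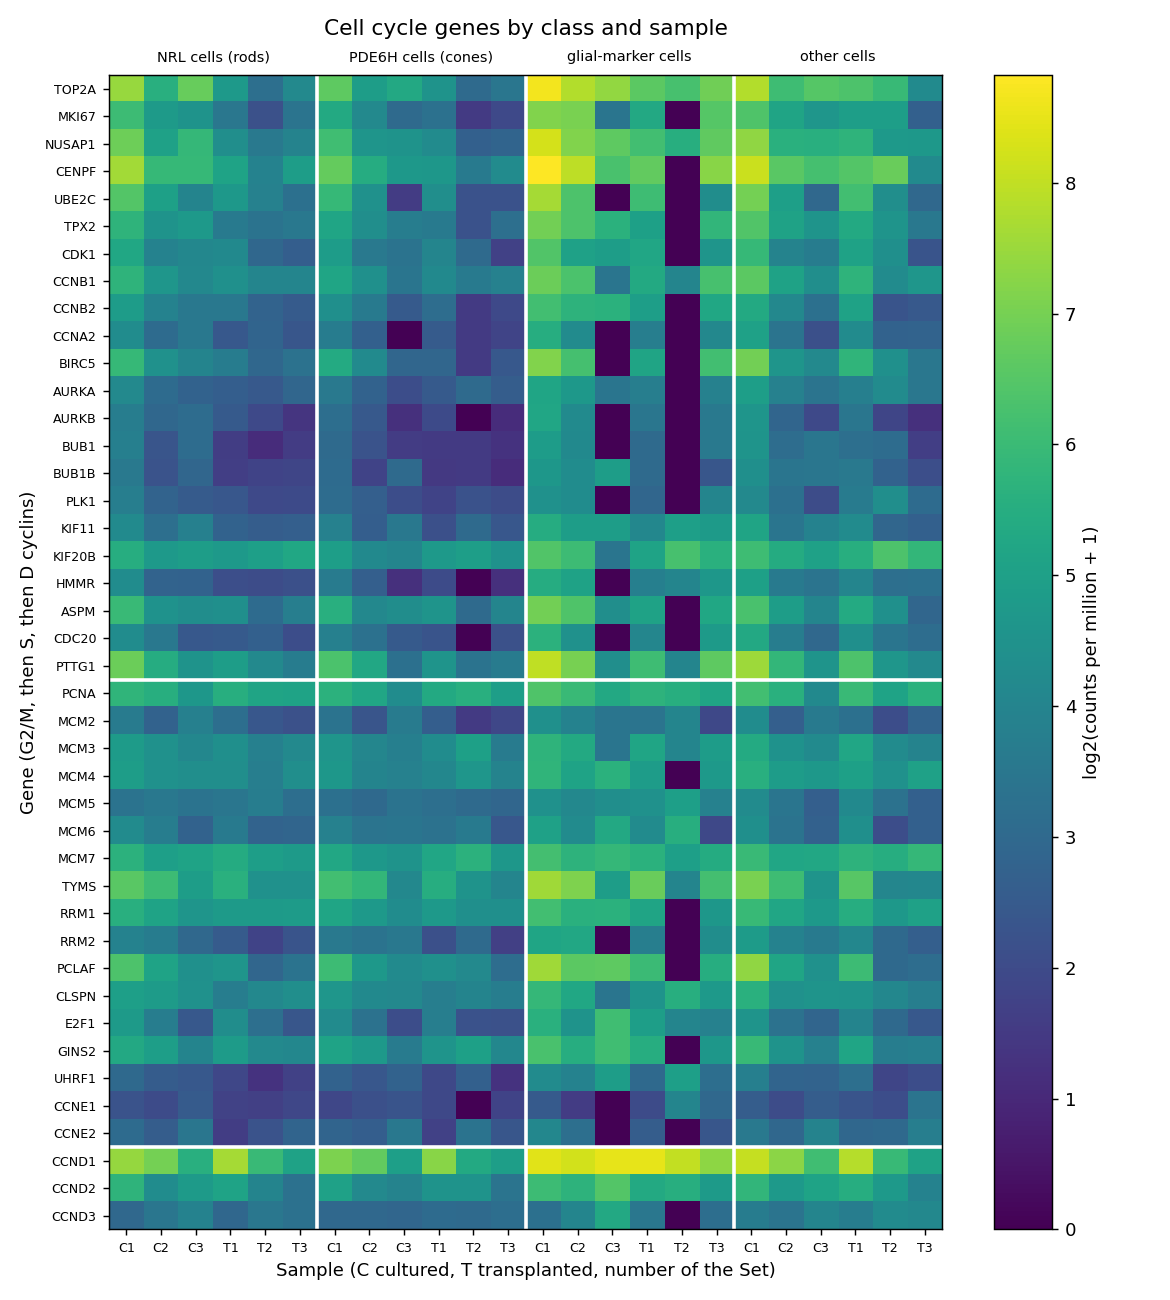
Heat map of the 42 genes (rows, G2/M then S then D cyclins) in 24 sums of cells (columns, 4 classes by 6 samples), with colour for log2(CPM + 1). Glial-marker cells of cultured 1 were the brightest block for G2/M genes, with 452 CPM of CENPF, and the glial-marker column of transplanted 2 rests on 13 cells.

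Glial-marker cells differed from rods of the same samples in 35 of 42 members, all higher (edgeR quasi-likelihood test with Benjamini-Hochberg adjustment, sample as covariate, 23 sums). The background was 12.4% of 21732 genes tested higher and 12.5% lower. All 22 G2/M members were higher, with a median log2 difference of 1.54, as were 11 of 17 S members with a median of 0.79 over the 17. Over all genes tested the median was -0.04. MKI67 differed by 2.07 on the log2 scale (SE 0.45, edgeR adjusted p = 0.00294) and TOP2A by 1.94 (SE 0.34, edgeR adjusted p = 0.000339). HMMR and NUSAP1, another spindle protein, differed by 1.86 and 1.85. Among S members PCLAF, a partner of PCNA, differed by 1.56, RRM2 by 1.54, UHRF1, which maintains DNA methylation at replication forks, by 1.48 and TYMS by 1.09. PCNA itself did not pass (log2 difference 0.34, SE 0.16, edgeR adjusted p = 0.112). Of the D cyclins, CCND1 was higher by 1.52 (SE 0.25, edgeR adjusted p = 0.000109) and CCND2 by 0.90, while CCND3 did not pass (0.44, edgeR adjusted p = 0.145).

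Other cells differed from rods in fewer members than glial-marker cells did. Of 42 members, 12 were higher than in rods and none lower, against 18.8% of genes tested higher and 14.6% lower. The 8 G2/M members were led by HMMR (log2 difference 1.10), the checkpoint kinases BUB1B (1.04) and BUB1 (0.95) and the anaphase activator CDC20 (0.95). The 4 S members were RRM2 (0.78), UHRF1 (0.68), the S-phase cyclin CCNE2 (0.68) and the helicase subunit MCM4 (0.46). With cultured samples alone, 2 members were called higher, beside 1581 of 22006 genes. With rods and cones that also met the glial rule left out, 28 were, beside 3641 of 19602 genes.

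In cones no member differed from rods at an adjusted p under 0.05 (edgeR), against 2.27% of genes higher and 0.93% lower. At an unadjusted p under 0.05, 9 of 42 members did, beside 2647 of 21732 genes. DESeq2 called 1 member, which was lower, beside 678 genes higher and 232 lower of 21732. All 42 log2 differences were below 0, with a median of -0.35 beside -0.03 over all genes tested. KIF20B, a kinesin of cytokinesis, was at -0.47 (SE 0.16, edgeR adjusted p = 0.124).

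To separate dividing cells from scattered UMIs, every cell was thinned at random to 1000 UMIs. A cell was then called a G2/M cell when it held 3 or more different G2/M members, and an S cell when it held 3 or more different S members. At that depth 10.4% to 16.8% of rods in Set 1 and 9.36% to 13.5% of rods in Sets 2 and 3 held exactly 1 G2/M member. Cells with 1 G2/M member made up 12.3% to 15.5% of other cells, whereas the share with 3 or more ranged from 0.389% to 10.6% in rods and from 0.835% to 15.9% in other cells. Reference cells were other cells with 3 or more UMIs summed over markers of amacrine or horizontal neurons, which do not divide. MEIS2, 1 of these markers, had medians of 459 CPM in rods, 461 in cones and 662 in other cells. The reference cells can therefore include cells that are not such neurons. In these, 9.68% to 14.4% held 1 G2/M member. The G2/M RNA outside G2/M cells was 106 to 318 CPM in rods, 120 to 230.2 CPM in cones and 124 to 314 CPM in the reference cells. The 3 ranges overlapped, and cultured 1 was the highest sample in each. Inside G2/M cells it was 3000 to 8000 CPM in rods. The reference cells of cultured 1 themselves included 12.7% G2/M cells, beside 0.421% to 2.69% in the other samples. That was above the 10.6% of rods in cultured 1, so there they give no baseline of cells that do not divide. Median depths were 2126 to 3820 UMIs in the reference cells and 3311 to 6486 in rods. Without thinning, 9.78% to 24.8% of rods would have passed the G2/M rule, and 17.98% to 30.9% the S rule.

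**Figure D2:**
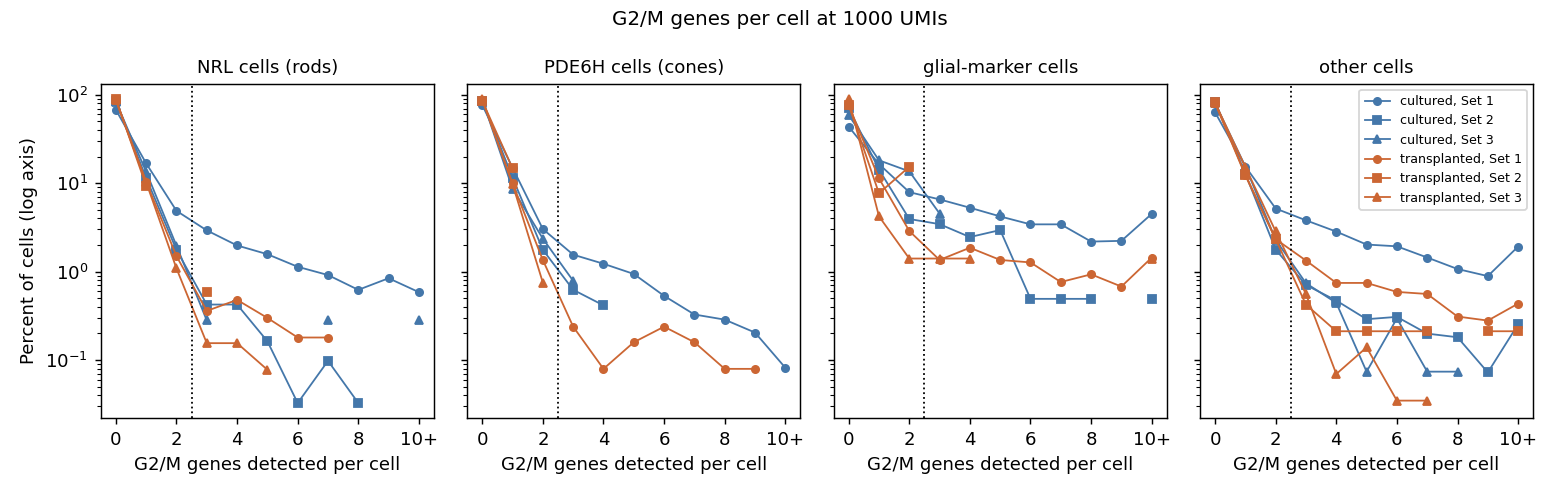
Percent of cells (log axis) by the number of different G2/M genes detected per cell at 1000 UMIs, in 4 classes, 1 line per sample, with counts of 10 or more pooled and absent points at 0. The dotted line marks the rule of 3 genes, and the share with 3 or more was highest in cultured 1 in each class, at 10.6% of rods and 31.9% of glial-marker cells.

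By this count rods held 359 G2/M cells of 9271, cones 150 of 5221, glial-marker cells 912 of 3908 and other cells 1588 of 21180. Near the limit, 103 of the rods called had exactly 3 G2/M members and 233 more had 2. Both phases were called together in 25 rods. S cells were fewer in each class, at 123 rods, 41 cones, 353 glial-marker cells and 787 other cells. Cultured 1 gave most of them: 289 of the 359 rods called G2/M came from that sample. In glial-marker cells the G2/M share was 31.9% in cultured 1 (95% exact binomial interval 30.01% to 33.76%), 10.8% in cultured 2 and 9.09% in cultured 3. These intervals cover counting error only.

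The members differed in how far their RNA sat in cells called cycling. For each gene, cells were called cycling from the other members only, so that a gene did not help to choose its own cells. In rods, where these cells were 4.44% to 4.92% of the class, they held a median of 55.3% of the UMIs of a G2/M member, 12.5% of an S member and 6.51% of a D cyclin. These pooled shares were carried by the cultured samples: the medians were 58.0%, 16.3% and 8.08% in cultured rods and 21.5%, 3.77% and 1.59% in transplanted rods, where 1.34% to 1.54% of cells were cycling. The values of single genes that follow pool both groups. HMMR was the most concentrated member in rods, with 67.9% of its UMIs in cycling cells and a level there 41.0 times that of the rest, although on 56 UMIs. TOP2A had 58.9% and a level 30.8 times higher. KIF20B was the exception among G2/M members, with 20.1% and a level 4.98 times higher. For PCNA the share was 11.1% and the ratio 2.52, and for MCM7 12.5% and 2.84. S members with more concentrated RNA were PCLAF (35.2%), UHRF1 (34.8%), TYMS (27.2%) and RRM2 (26.2%). CCND2 and CCND3 were close to even, at ratios of 1.34 and 0.864. In glial-marker cells, of which 26.5% to 28.2% were cycling, G2/M members had a median of 85.7% of their UMIs in them (86.4% in cultured, 83.0% in transplanted samples) and S members 47.5% (51.0% and 31.2%). These values pool the 6 samples and carry no replicate error. Cycling cells were still chosen by the rest of the same list, and rods called G2/M (359) outnumbered those called S (123). How far this choice set the higher shares of G2/M members was not tested.

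**Figure D3:**
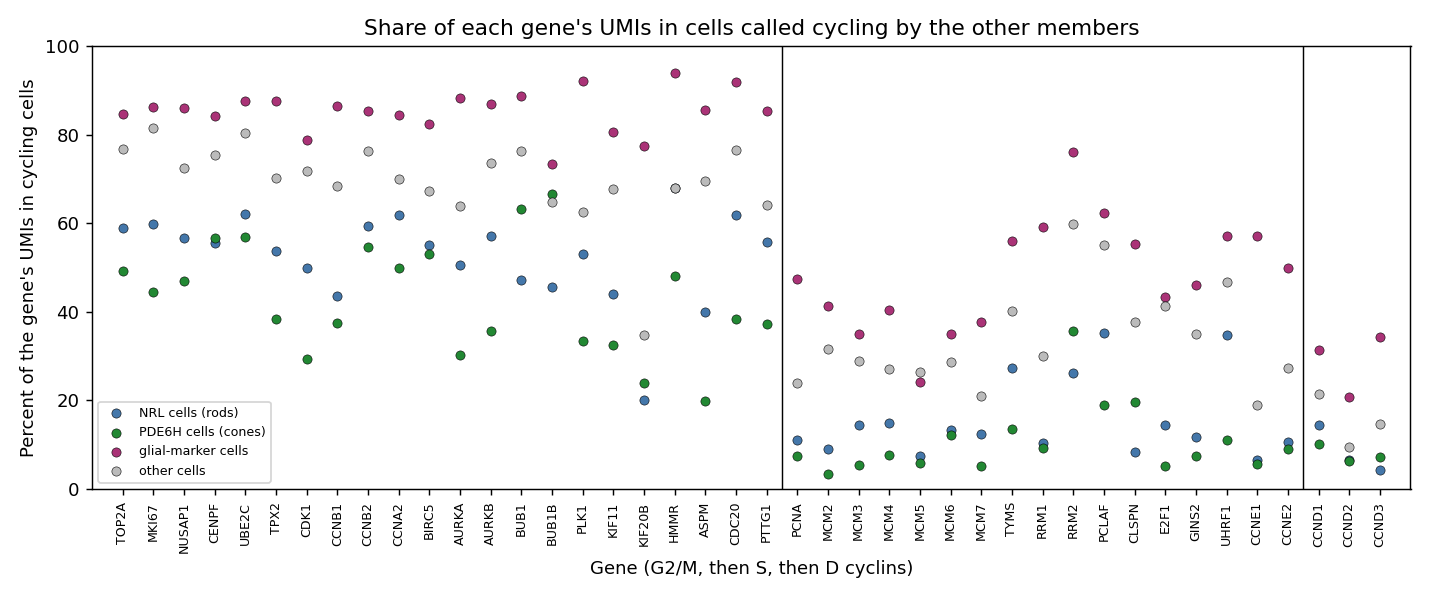
Percent of each gene's UMIs (y axis) found in cells called cycling by the other members, for 42 genes (x axis) in 4 classes, over all samples. The G2/M genes of rods lay between 20.1% and 67.9%, with KIF20B lowest, while the S genes of rods lay between 6.67% and 35.2%.

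A handful of deep cells carried much of the G2/M RNA in the smaller samples. In rods the 5 richest cells held 3.90%, 7.53% and 62.5% of all G2/M UMIs in cultured 1, 2 and 3 and 14.9%, 64.6% and 36.1% in transplanted 1, 2 and 3. The median depth of those 5 cells was 50540 UMIs in cultured 3 and 230200 in transplanted 2, beside class medians of 4063 and 5913. S members were less gathered, with 21.3% of their UMIs in the 5 richest rods of cultured 3. Sums weight a cell by its depth and thinned shares do not, so the 484.7 CPM of G2/M RNA in rods of cultured 3 went with only 3 G2/M cells among 356.

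The share of G2/M cells was lower in the transplanted than in the cultured sample of every Set in all 4 classes, but no class passed a test over samples. In rods G2/M cells made up 10.6%, 1.18% and 0.843% of cultured 1, 2 and 3 and 1.5%, 0.585% and 0.389% of transplanted 1, 2 and 3. The cultured mean was 4.20 ± 5.53% and the transplanted mean 0.824 ± 0.593% (SD, n = 3 each, two-sided exact permutation p = 0.4). Cultured 1 stood far above the rest and the other samples overlapped, and without it the cultured mean was 1.01%. Cones held 5.16%, 1.04% and 0.787% in cultured samples and 1.03%, 0% and 0% in transplanted samples (exact p = 0.2). The 0 of 400 cones in transplanted 3 allows a share of up to 0.75%, and the 0 of 34 in transplanted 2 up to 8.82%. Glial-marker cells held 31.9%, 10.8% and 9.09% in cultured and 9.67%, 0% (0 of 13 cells, up to 23.1%) and 4.23% in transplanted samples (exact p = 0.2). Only cultured 1 lay far from the others here too. Other cells had 15.9%, 2.48% and 1.70% against 5.003%, 1.70% and 0.835% (exact p = 0.5). S shares gave exact p-values of 0.3, 0.4, 0.1 and 0.5 in the same order of classes. Over the 8 tests every adjusted p was 0.5, and with 3 samples against 3 no p under 0.1 could be reached.

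**Figure D4:**
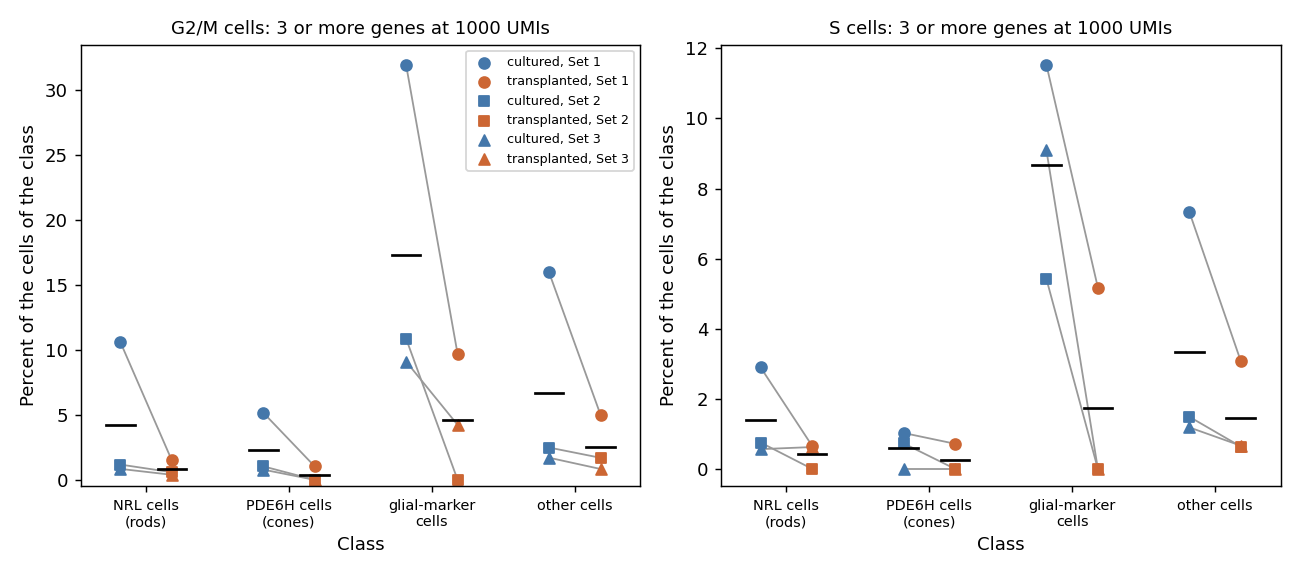
Percent of cells called G2/M (left) and S (right) at 1000 UMIs in 4 classes, with 1 point per sample, grey lines joining the samples of a Set and black bars for the mean of 3. The G2/M lines run downward in all 4 classes, and cultured 1 is the highest point of each class.

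Summed expression was compared between transplanted and cultured samples per class. Without the Set in the model no gene passed an adjusted p of 0.05 in any class (edgeR), so 0 of 42 members did. At an unadjusted p under 0.05, the counts were 493 genes in rods, 317 in cones, 87 in glial-marker cells and 191 in other cells, of 18051, 17642, 13500 and 18995 tested, and 8, 4, 1 and 0 of them were members. DESeq2 without the Set called 24, 8, 1 and 10 genes and no member. Because cultured and transplanted samples of a Set share an organoid batch, the same fit was made with the Set as a block. It called 18 members lower in rods, 4 in cones, 0 in glial-marker cells and 1 in other cells, and none higher. In glial-marker cells this fit held 5 samples, and only Sets 1 and 3 had both of theirs. The median log2 change of G2/M members was -0.91 there and -0.92 in other cells, so the 0 does not show a lack of response. The background in rods was 2.14% of 19169 genes called lower and 2.19% higher. In cones 0.509% of genes were called lower and 0.392% higher, and in other cells 0.391% and 0.44%. In glial-marker cells 0.114% and 0.0807% were, and 9 of the 42 members had an unadjusted p under 0.05 there, beside 649 of 14865 genes. Over the 42 members CPM was lower in 3 of 3 Sets for 32 in rods, beside 30.2% of genes tested, for 19 in cones (19.5% of genes), for 12 in glial-marker cells (20.1%) and for 26 in other cells (16.9%).

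The members called lower in rods with the Set as a block were mostly of G2 and mitosis. They were 16 of 22 G2/M members, 2 of 17 S members and 0 of 3 D cyclins. Whether the phases differed was not tested. Median log2 changes with the Set as a block were -1.21 for G2/M members, -0.44 for S members and -0.27 for D cyclins. The sums weight deep cells, and the 5 richest rods held 62.5% of all G2/M UMIs in cultured 3 and 64.6% in transplanted 2. TOP2A was at 175, 46.2 and 109 CPM in cultured 1, 2 and 3 and 25.8, 8.36 and 16.9 CPM in transplanted 1, 2 and 3. All 3 transplanted values lay below all 3 cultured ones, and the log2 change was -2.48 (SE 0.24, edgeR adjusted p = 6.36e-06 in the block fit). The share of all genes with groups apart in this way was not counted, so a lack of overlap is given as description only. MKI67 was at 65.8, 27.3 and 22.4 CPM against 10.4, 3.58 and 9.43 CPM, also without overlap (log2 change -2.07, SE 0.33, edgeR adjusted p = 0.0047). NUSAP1 had 116, 32.4 and 57.98 CPM against 19.3, 10.75 and 14.4 CPM (log2 change -1.92, SE 0.25, edgeR adjusted p = 0.000256). CENPF, a kinetochore protein, had 191.5, 58.6 and 58.7 CPM against 33.6, 14.1 and 28.9 CPM (log2 change -1.70, SE 0.31, edgeR adjusted p = 0.00555). In each of these genes cultured 1 was the highest sample and transplanted 2 the lowest. Their genes lie at chr17:40388516-40417950 (TOP2A), chr10:128096659-128126385 (MKI67) and chr1:214603195-214664588 (CENPF) in GENCODE 29 on GRCh38, and the 3′ counts cannot be assigned to exons.

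Spindle and checkpoint genes went the same way. BUB1, a checkpoint kinase, was at 13.2, 3.998 and 7.71 CPM against 2.01, 1.19 and 1.97 CPM (log2 change -2.07, SE 0.37, edgeR adjusted p = 0.00356). BUB1B was at 10.96, 3.84 and 6.61 CPM against 2.09, 2.39 and 2.56 CPM (log2 change -1.42, edgeR adjusted p = 0.0455). TPX2, which targets Aurora A to the spindle, was at 51.8, 22.1 and 26.4 CPM against 11.4, 9.32 and 10.5 CPM (log2 change -1.45, edgeR adjusted p = 0.00298). The transplanted samples were again the 3 lowest of each gene. KIF11, the kinesin that separates spindle poles, was at 17.7, 8.28 and 13.2 CPM against 5.86, 5.02 and 5.33 CPM (log2 change -1.08, edgeR adjusted p = 0.032). HMMR was at 18.6, 6.02 and 5.87 CPM against 3.35, 3.11 and 3.46 CPM (log2 change -1.36, edgeR adjusted p = 0.0494). ASPM, a spindle pole protein, was at 61.6, 21.7 and 19.1 CPM against 20.3, 7.41 and 12.8 CPM, with transplanted 1 above cultured 3 (log2 change -1.10, edgeR adjusted p = 0.018). KIF20B did not pass, at 44.6, 26.3 and 29.4 CPM against 25.9, 30.8 and 37.2 CPM, with overlapping groups and a log2 change of 0.08 (SE 0.26, edgeR adjusted p = 0.905).

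Mitotic kinases, cyclins and their regulators followed. CDK1, the mitotic kinase, was at 37.1, 14.2 and 15.8 CPM against 17.2, 6.69 and 5.17 CPM (log2 change -1.10, edgeR adjusted p = 0.00716). CCNB2, a partner cyclin of CDK1, was at 28.3, 13.9 and 10.6 CPM against 10.7, 5.97 and 4.85 CPM (log2 change -1.12, edgeR adjusted p = 0.0124). In both genes transplanted 1 lay within the cultured range. AURKB, the kinase of the chromosomal passenger complex, was at 12.4, 6.80 and 7.71 CPM against 4.604, 2.87 and 1.54 CPM (log2 change -1.49, edgeR adjusted p = 0.0118). BIRC5, a subunit of that complex, was at 59.5, 21.1 and 14.7 CPM against 11.97, 6.69 and 9.11 CPM (log2 change -1.46, edgeR adjusted p = 0.0204). UBE2C, which serves the anaphase-promoting complex, was at 86.3, 31.1 and 14.7 CPM against 25.1, 13.85 and 8.52 CPM (log2 change -1.14, edgeR adjusted p = 0.0133). AURKB and BIRC5 did not overlap between groups, and UBE2C did. PTTG1, the securin that holds sister chromatids together, was at 113, 43.5 and 22.4 CPM against 28.8, 16.96 and 12.04 CPM (log2 change -1.28, edgeR adjusted p = 0.00785). PTTG1 has near-identical copies in the genome, so its count is uncertain. The 6 G2/M members that did not pass in rods were CCNB1, CCNA2, AURKA, PLK1, CDC20 and KIF20B.

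**Figure D5:**
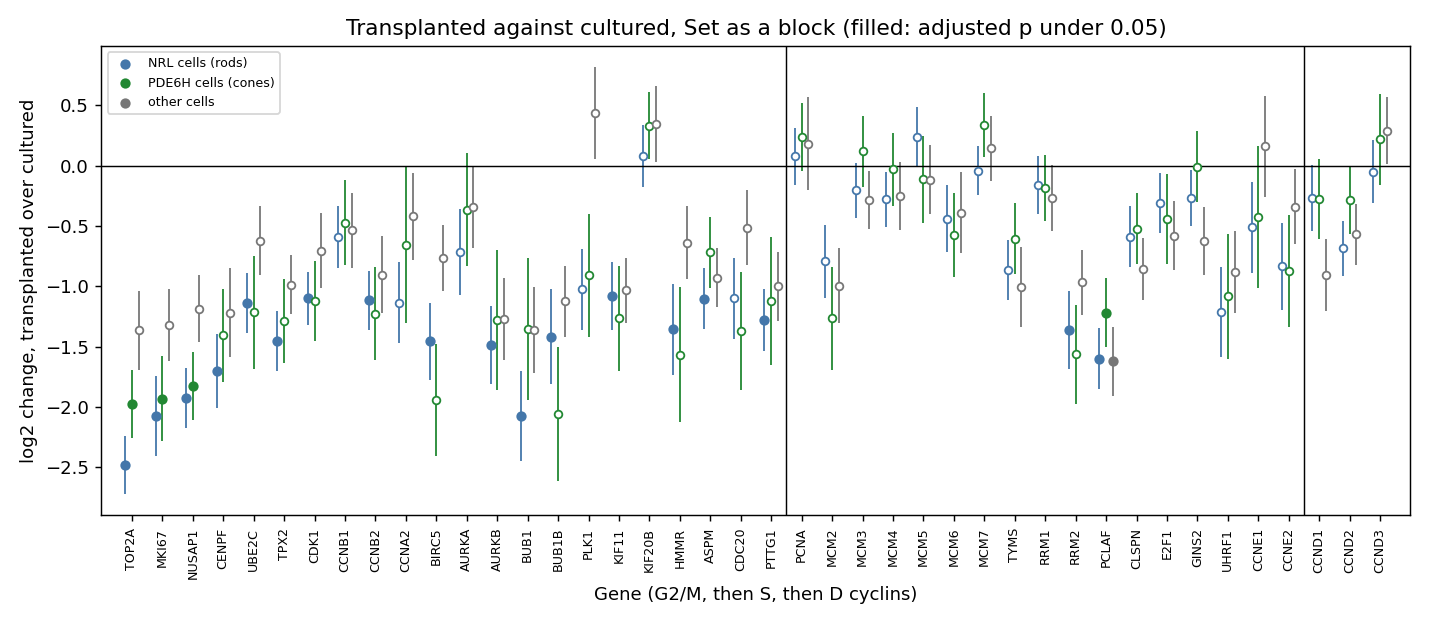
log2 change of transplanted over cultured samples (y axis, bars 1 SE) with the Set as a block for 42 genes (x axis) in rods, cones and other cells, filled where the adjusted p was under 0.05. In rods 16 filled points are G2/M genes, led by TOP2A at -2.48, while PCNA and the MCM genes lie near 0 or did not pass.

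Most S genes did not pass. PCLAF was at 80.3, 34.1 and 20.55 CPM in cultured rods and 23.3, 6.45 and 9.21 CPM in transplanted rods (log2 change -1.60, SE 0.25, edgeR adjusted p = 0.00166). RRM2, the inducible subunit of ribonucleotide reductase, was at 13.9, 12.03 and 6.97 CPM against 4.86, 2.39 and 3.94 CPM, without overlap (log2 change -1.36, edgeR adjusted p = 0.0201). These 2 S members were also among the 4 with the most concentrated RNA in rods. TYMS, which makes thymidylate, was at 94.5, 65.0 and 29.4 CPM against 47.7, 21.0 and 21.25 CPM and missed the threshold (edgeR adjusted p = 0.0526). RRM1, the other reductase subunit, was at 46.9, 34.1 and 23.1 CPM against 26.9, 27.0 and 27.4 CPM. PCNA was at 54.2, 45.6 and 24.6 CPM against 45.1, 34.6 and 34.1 CPM, and MCM7 at 50.04, 30.8 and 34.1 CPM against 42.2, 29.6 and 27.3 CPM. The groups overlapped in RRM1, PCNA and MCM7, with log2 changes of -0.16 (SE 0.24), 0.08 (SE 0.24) and -0.04 (SE 0.20).

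The D cyclins answer to growth signals before S phase, and none was called in any class between transplanted and cultured samples. CCND1 in rods was at 170.2, 126 and 47.0 CPM in cultured and 197, 62.1 and 32.6 CPM in transplanted samples. Set 1 was the highest in both groups and the groups overlapped (log2 change -0.27, SE 0.27, edgeR adjusted p = 0.652). CCND1 in glial-marker cells was at 341, 295 and 360.4 CPM in cultured and 363, 260 and 159 CPM in transplanted samples, the highest level of any class in each sample. In cones it was at 134, 102 and 30.8 against 153, 40.6 and 29.7 CPM, and in other cells at 263.5, 156 and 69.1 against 229, 59.98 and 33.1 CPM. CCND2 in rods was at 52.7, 18.7 and 26.8 CPM against 33.5, 14.8 and 8.79 CPM, lower in 3 of 3 Sets but overlapping. CCND3 ranged from 6.70 to 13.9 CPM in rods.

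In cones the 4 members called were TOP2A (99.5, 29.1 and 39.3 CPM in cultured against 21.9, 7.38 and 10.1 CPM in transplanted samples, log2 change -1.98, SE 0.28, edgeR adjusted p = 0.000791), NUSAP1, MKI67 and PCLAF. NUSAP1 changed by -1.83 (edgeR adjusted p = 0.00164) and did not overlap, like TOP2A. MKI67 changed by -1.93 (edgeR adjusted p = 0.00787) and PCLAF by -1.22 (edgeR adjusted p = 0.0407), with overlapping groups. In other cells PCLAF alone was called, at 163, 35.3 and 21.2 CPM against 65.8, 7.09 and 7.96 CPM (log2 change -1.62, edgeR adjusted p = 0.0155), with overlapping groups. TOP2A in glial-marker cells was at 410, 224 and 166 CPM against 96.2, 76.4 and 120 CPM, without overlap but with 13 cells behind the value of transplanted 2, which the fit left out. Its log2 change of -1.18 without the Set did not pass (SE 0.79, n = 5, edgeR adjusted p = 0.99994).

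Whether the classes responded differently was tested directly. For rods, cones and glial-marker cells, the response minus that of other cells was called for 0 of 42 members, beside 0.00434%, 0% and 0.00868% of 23044 genes called lower and none higher (edgeR). At an unadjusted p under 0.05 this was 1 member in rods, the mitotic kinase PLK1 (log2 -1.21, SE 0.46, edgeR adjusted p = 0.746), and 0 in the other classes. Over all genes this was 1504 in rods, 1082 in cones and 1605 in glial-marker cells. The members' counts are too small to set against that background. In rods all 22 G2/M differences in response were below 0, with a median log2 of -0.45. Over the 42 members 32 were below 0 in rods, with a median of -0.24 beside 0.03 over all genes tested. In cones 25 of 42 were, and in glial-marker cells 23. DESeq2 called 0, 0 and 0 members for rods, cones and glial-marker cells, beside 4, 4 and 10 genes, all lower. The larger count of calls in rods than in other cells was therefore not shown to be a difference between classes.

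The block fit was repeated without cells holding 3 or more different G2/M or S members at full depth. This step takes UMIs of these very genes away and, being unthinned, removes deep cells as well as cells called dividing: 1821 of 2729 rods remained in cultured 1 and 936 of 1287 in transplanted 3. It called 2 of the 34 members still tested in rods, TOP2A and PCLAF, 2 of 37 in cones, both of G2/M, and 0 of 41 in other cells. Over all genes, 180 of 17057 were called lower in rods, 122 of 16975 in cones and 67 of 19471 in other cells. In cones transplanted 2 then had 19 cells and was left out. TOP2A still changed by -2.59 in rods (edgeR adjusted p = 0.00232) and -2.71 in cones (edgeR adjusted p = 0.0043). In thinned rods outside cycling cells, TOP2A was at 33.1 CPM over the cultured samples and 10.7 CPM over the transplanted ones, pooled without replicate error. Without Set 1, 5 members were called in rods (TOP2A, NUSAP1, MKI67, PCLAF and CENPF), 1 in cones (TOP2A) and 0 in other cells. Without Set 2 the counts were 19, 2 and 10, and without Set 3 they were 12, 16 and 14. Genes called lower in rods, cones and other cells were 233, 58 and 0 without Set 1. They were 296, 15 and 207 without Set 2 and 77, 292 and 554 without Set 3, of 16872 to 19454 genes tested. With rods that also met the glial rule left out, 4 were called in rods, beside 282 of 16902 genes lower. In glial-marker against rod comparisons, leaving out cells with 3 or more G2/M or S members at full depth gave 7 calls among 41 members tested. Of these, 4 were higher and 3 lower, with CCND1 and CCND2 among the higher. Beside them, 2176 of 20350 genes were higher and 2910 lower.

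Rods called G2/M differed from rods with no G2/M member and no S call in other ways too, in the 3 samples with 20 or more of them. They were deeper, with medians of 4283 against 2990 UMIs in cultured 1, 28800 against 5943 in cultured 2 and 6916 against 4399 in transplanted 1. RNA of 8 rod markers was lower, at 1422 against 2290 CPM, 1273 against 2483 CPM and 988 against 1670 CPM. CRX was also lower, at 64.2 against 129, 116 against 233.5 and 49.0 against 114 CPM. RNA of 8 Müller glia markers was higher, at 2743 against 1818, 1804 against 1266 and 2250 against 2106 CPM, and so were 9 progenitor markers. CDKN1C, an inhibitor that stops the cycle, was at 127 against 207, 94.1 against 150.2 and 180 against 245 CPM. Depth and markers of other classes thus moved with the G2/M call, and their part in it was not tested. Among other cells of transplanted 1, those called G2/M had 109 CPM of myeloid markers, against 31.0 CPM in those with neither a G2/M member nor an S call. The median share of UMIs on clone-named human genes was 0.418% against 0.679%. That share was lower in the G2/M cells of all 5 samples with 20 or more of them, cultured samples included. In cultured 1 it was 0.548% against 0.650%. In transplanted 3, with 24 such cells, myeloid markers ran the other way, at 0 against 34.7 CPM. The part of dog host cells in this was not tested.

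Genes of the same pathways outside the 42 members were read from lists. Of 31 further G2/M genes, 15 were lower in transplanted rods with the Set as a block and none higher, with a median log2 change of -1.07. They included DLGAP5 (-2.24), HJURP (-2.03), KIF2C (-1.67) and GTSE1 (-1.61). Of 30 further S genes 1 was lower in rods, DTL (-1.70), with a median of -0.26. Of 15 cycle regulators (CDKs, their activators CDC25A and CDC25B, WEE1, E2F and TFDP factors, FOXM1, MYBL2 and LIN54) 2 were lower in rods, the G2/M activators FOXM1 (-1.28) and MYBL2 (-1.60), and E2F3 was lower in cones (-1.10). Among further G2/M genes NUF2 was lower in cones (-1.50) and, in other cells, DLGAP5 was (-1.55). Without the Set none of these passed in any class.

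Of 10 cycle inhibitors, 7 CDK inhibitors and the 3 pocket proteins RB1, RBL1 and RBL2, 1 was lower and 1 higher in transplanted rods with the Set as a block. CDKN1A, the p53-induced inhibitor p21, was at 44.3, 37.3 and 59.8 CPM in cultured and 21.8, 16.5 and 18.8 CPM in transplanted rods, without overlap (log2 change -1.12, SE 0.20, edgeR adjusted p = 0.00377). It was also lower in cones (-1.23, edgeR adjusted p = 0.0247). CDKN2B was higher in rods, at 1.53, 2.84 and 1.47 CPM against 2.93, 7.17 and 6.55 CPM (log2 change 1.52, edgeR adjusted p = 0.0272). CDKN1B, p27, was at 51.2, 35.9 and 47.0 CPM against 62.6, 60.9 and 64.8 CPM, without overlap, and missed the threshold (log2 change 0.67, edgeR adjusted p = 0.0864). CDKN1C, p57, was at 189.5, 139 and 163 CPM against 240, 379 and 287 CPM, also without overlap, and also missed it (log2 change 1.04, edgeR adjusted p = 0.0688). Between classes CDKN1C was lower than in rods by every comparison, at -1.62 in glial-marker cells (edgeR adjusted p = 8.17e-07), -1.53 in other cells and -0.63 in cones (edgeR adjusted p = 0.0239). CDKN1A was higher than in rods in other cells (1.31) and glial-marker cells (0.48), and CDKN2D, p19, was lower in glial-marker cells (-1.02). Of the further genes, 27 of 31 for G2/M and 19 of 30 for S phase were higher in glial-marker cells than in rods.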

How the data were processed

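Single-cell RNA was counted as raw UMI counts, which the authors deposited as 10x matrices made with Cell Ranger 6.0.2 (Set 1) or 7.1.0 (Sets 2 and 3), per the file headers, on GRCh38 per the submitters' processing notes. Whether introns were counted is not given in the sources used here. Barcodes were kept from 1000 UMIs and 500 genes upward, with mitochondrial UMIs no higher than 20%, and the highest-ranked Scrublet doublets were removed (0.8% per 1000 cells, since its automatic calls marked 0 to 5 cells per library). Doublets removed made up 0.576% to 14.3% of a library.

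Counts were summed per class and sample (at least 20 cells) and tested with edgeR 4.0.16 (quasi-likelihood, robust, filterByExpr, TMM, Benjamini-Hochberg 0.05) in R 4.3.3, with DESeq2 1.42.0 as an alternative. The sums held 102666 to 50030291 UMIs. Transplanted and cultured samples were compared without the Set, and with it as a block. The series text states that samples of a Set share an organoid batch, and their deviations from the group means correlated at 0.342 to 0.934 in the 11 class and Set pairs checked. Class comparisons had the sample as covariate. Shares of cells were compared by exact permutation after thinning to 1000 UMIs. Scripts were tested on simulated data.

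Named members were the 6 G2/M and 5 S genes with the highest mean CPM, the D cyclins, every member called between transplanted and cultured samples, and up to 4 per class contrast, phase and direction. Other genes named from pathway lists, and the values of individual members beyond this rule, were chosen after their values were seen. The members and lists were chosen with earlier results of these data known. Separate cultures back the 3 Sets, but whether the transplanted samples came from separate dogs is not given in the sources used here.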

Additional observations from a re-analysis of the deposited data

How the results depend on the processing

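With the Set as a replicate block, the genes called between transplanted and cultured samples went from 0 to 830 in rods, 170 in cones, 29 in glial-marker cells and 170 in other cells, and the members from 0 to 18, 4, 0 and 1. DESeq2 without the block called 24, 8, 1 and 10 genes. Cells meeting both rules are here rods or cones that also met the glial rule. Within the block fit, the members called in rods were 4 with these cells left out. They were 2 without cells holding 3 or more G2/M or S members at full depth (member-rich cells) and 5 to 19 without 1 Set. In cones they were 9, 2 and 1 to 16, with 7 when doublets were kept, 14 with a filter against host cells and 9 with no filter on low counts. Genes called lower in cones were 207 of 16911 with cells meeting both rules left out and 105 of 19242 with doublets kept. With the host filter 248 of 18726 were, and 171 of 30032 with no filter on low counts. In other cells the members called were 0 without member-rich cells, 0 to 14 without 1 Set, 11 with the host filter, 4 with DESeq2 and 6 with no filter on low counts. Genes called lower in the last settings were 204 of 20316, 161 of 20475 and 238 of 32193, in that order. In glial-marker cells 6 members were called with the host filter, beside 44 of 14811 genes lower. That filter left 34 of the 71 glial-marker cells of transplanted 3. With no replicate block all counts of members were 0.

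Cones against rods gave 696 genes, and 1250 with cells meeting both rules left out, 1846 without member-rich cells, 391 in cultured samples alone and 310 to 734 without 1 sample. Its members went from 0 to 1 with DESeq2 (678 genes higher and 232 lower), 3 with cells meeting both rules left out and 3 without member-rich cells. In cultured samples alone 2855 genes were called for glial-marker cells and 3084 for other cells against rods. Members called against rods were 7 without member-rich cells for glial-marker cells. For other cells they were 28 with cells meeting both rules left out, 6 without member-rich cells and 2 in cultured samples alone. Genes higher and lower without member-rich cells were 2176 and 2910 of 20350 for glial-marker cells. For other cells they were 3641 and 3038 of 19602, 3454 and 2814 of 20350, and 1581 and 1503 of 22006, in the order of the settings above.

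Directions turned in 7 cases. Without thinning, the cone share difference was 0.42 percentage points for G2/M and 6.26 for S. Without cultured 1 the difference in other cells was 0.42 for G2/M and 0.12 for S, while in rods the G2/M difference kept its sign at -0.19. Leaving 1 sample out otherwise gave G2/M differences of -5.06 to -0.19 in rods and -6.70 to 0.42 in other cells, and S differences of -2.95 to 0.12 in other cells. Without member-rich cells KIF11 changed by 0.51 in rods with the block, and HMMR differed by -0.49 in glial-marker cells and CCNE2 by -0.012 in other cells. Their cause was not tested, beyond the removal of these genes' own UMIs. All 23 log2 changes called with the block lost their call without it, 17 did without Set 1, 14 without member-rich cells and 14 with cells meeting both rules left out. Of 18 named class differences, 12 lost their call without member-rich cells and 7 in cultured samples alone. For glial-marker cells the block fit had no residual degrees of freedom with the threshold of 5 UMIs, without member-rich cells and without Sets 1 or 3, and was not run.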
